A study of Mus musculus with 12 samples.

Results

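The 8 libraries described here are 4 of adult neural stem cells (adult NSC) and 4 of postnatal neural stem cells (postnatal NSC), out of 12 libraries in the series. They were chosen by their group labels, and no measured value was used to choose them. All were primary cultures from the subventricular zone of CD1 mice, an outbred stock, and no altered gene or drug is named in the labels for either group. Adult NSC came from animals of 2 months and postnatal NSC from pups of day 0 to 2 after birth. Both were grown for 6 to 7 days as neurospheres, floating clusters of dividing cells, in a medium without serum. It held the supplement B27 at 2%, heparin at 2 ug/mL, EGF at 20 ng/mL and FGF at 10 ng/mL. The replicates came from 4 litters, and whether animals were pooled or sexed is not stated. The other 4 libraries are postnatal oligodendrocyte precursor cells (OPC), grown from postnatal neurospheres with PDGF-AA in place of EGF, and serve here only for levels set beside those of the NSC.

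The subventricular zone lines the lateral ventricles and keeps neural stem cells into adult life. In the living adult brain most of these cells rest, and those that become active give rise to dividing progenitors, then to neuroblasts and, less often, to oligodendrocytes. In the days around birth the same layer is still producing neurons and glia in large numbers, and glial output is high. In neurosphere culture EGF and FGF drive stem and progenitor cells to divide, so that a sphere holds a mixture of stem cells, progenitors and some of their progeny. The comparison asks how neurosphere cells of the same brain region and medium differ when the donors differ in age.

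Total gene counts were 16756231 to 20064043 in the adult libraries and 38928989 to 54801726 in the postnatal ones, so that depth followed the groups and any difference in library run cannot be told apart from age. Of the 55401 gene identifiers in the table, 16227 passed the filter on low counts in these 8 libraries and were tested. Levels are CPM, a gene's counts scaled to a common normalised library size. A change is the log2 fold change of adult over postnatal NSC. The value after ± on a log2 change is an approximate standard error, the change divided by the square root of its test statistic F. It comes from 1 fit of both groups, although their spreads differ. Adult libraries were close to each other, with a biological coefficient of variation of 7.1% against 30.1% among postnatal libraries. The postnatal SD of log2 CPM was the larger in 13778 genes (84.9%). Postnatal NSC 3 stood apart, with 2212 genes (13.6%) at least 2-fold away from the mean of the other 3 postnatal libraries, against 277 to 386 genes for each adult library. Xist, which is transcribed from the inactive X chromosome of female cells, reached 1141 CPM in adult NSC 1. Postnatal NSC 2, 3 and 4 had 828, 1359 and 540 CPM of it, and the other 4 libraries 0.52 CPM or less. Ddx3y, a gene of the Y chromosome, lay between 38 and 48 CPM in those 4 and reached 16 CPM in postnatal NSC 4, which thus held RNA of both sexes.

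In the adult libraries 4087 genes were higher and 4562 lower at an adjusted p under 0.05, or 25.2% and 28.1% of all genes tested (edgeR quasi-likelihood test with Benjamini-Hochberg adjustment). With a change of at least 2-fold as well, 1046 genes (6.45%) were higher and 2115 (13.0%) lower. All 4 adult libraries lay above all 4 postnatal libraries in 4307 genes (26.5%) and below them in 4243 (26.1%), so that the groups did not overlap in 52.7% of genes. The median change over all genes tested was −0.03 on the log2 scale. Since more than 1 gene in 2 was called, 53.3% in all, the number of called genes in any group below has to be read against these shares. Without postnatal NSC 3 and 4, the libraries that stood apart or held both sexes, 4695 genes were higher and 5073 lower, a setting chosen after the data had been seen.

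**Figure D1:**
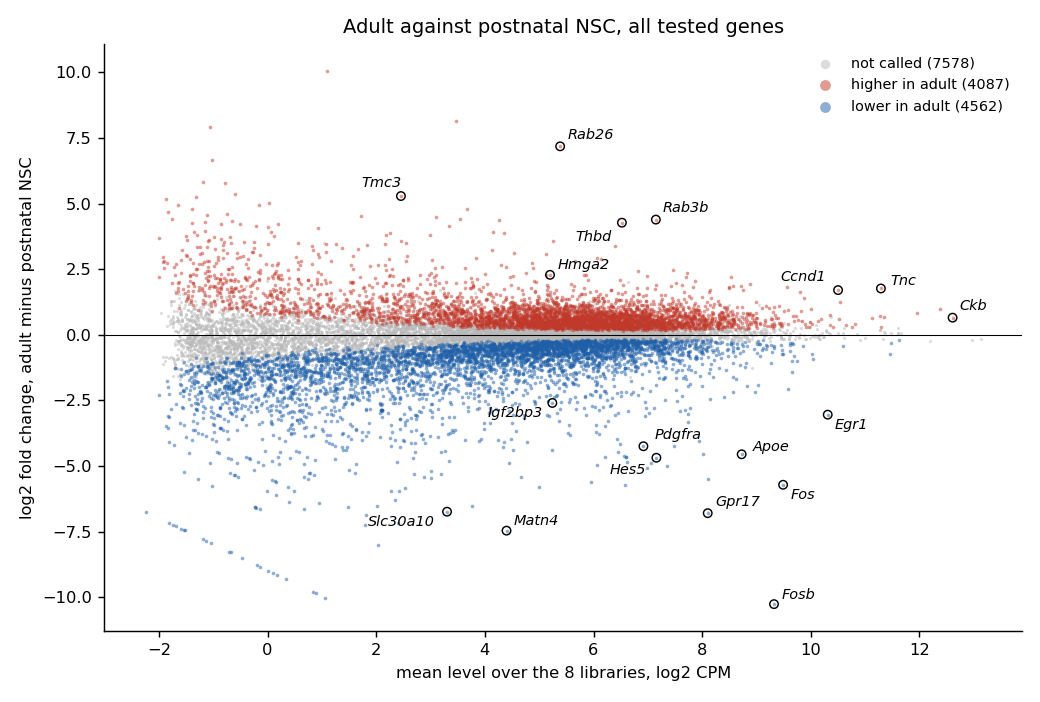
Log2 fold change of adult over postnatal NSC (vertical axis) against the mean level over the 8 libraries (log2 CPM, horizontal axis), with 1 point per tested gene. Red points are the 4087 genes higher in adult NSC, blue points the 4562 lower and grey points the 7578 that were not called, and the named genes are circled. The blue diagonal at the lower left holds genes without counts in the adult libraries, whose fitted changes are not bounds.

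Genes of neural stem and progenitor cells were detected in all 8 libraries. Nes, the intermediate filament gene of neural stem cells, was at 2049, 2110, 1929 and 2115 CPM in adult NSC 1 to 4, and at 1595, 1552, 1356 and 1622 CPM in postnatal NSC 1 to 4. The adult libraries were all higher, by 0.42 ± 0.08 on the log2 scale. Sox2, a transcription factor gene that keeps neural progenitors undifferentiated, was at 214, 215, 216 and 196 CPM against 148, 221, 249 and 188 CPM, and the ranges overlapped (0.06 ± 0.14, edgeR adjusted p = 0.723). Olig2, a transcription factor gene of progenitors and of the oligodendrocyte lineage, was at 645, 591, 623 and 605 CPM against 494, 506, 357 and 749 CPM (0.23 ± 0.19, edgeR adjusted p = 0.331). Without postnatal NSC 4 the value for Olig2 was 0.43 and passed (edgeR adjusted p = 0.017, and 0.00718 to 0.664 over all edgeR settings). Here and below, these edgeR settings are those that tested against a change of 0, and the test against 1.5-fold is left out. Egfr, the receptor for the EGF in the medium, was at 708, 694, 643 and 690 CPM in adult and 443, 455, 415 and 520 CPM in postnatal NSC, again with every adult library above every postnatal one (0.58 ± 0.09). Of the 20 genes of the neural stem and radial glia list, 6 were higher and 6 lower, with a median of 0.00, and 3 were higher without adult NSC 1, 2 or 4. Fabp7, a fatty acid-binding protein gene of radial glia, was higher by 0.30 ± 0.09, a call that did not hold when any 1 adult library was left out (edgeR adjusted p of 0.0205 to 0.914 over all edgeR settings).

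**Figure D2:**
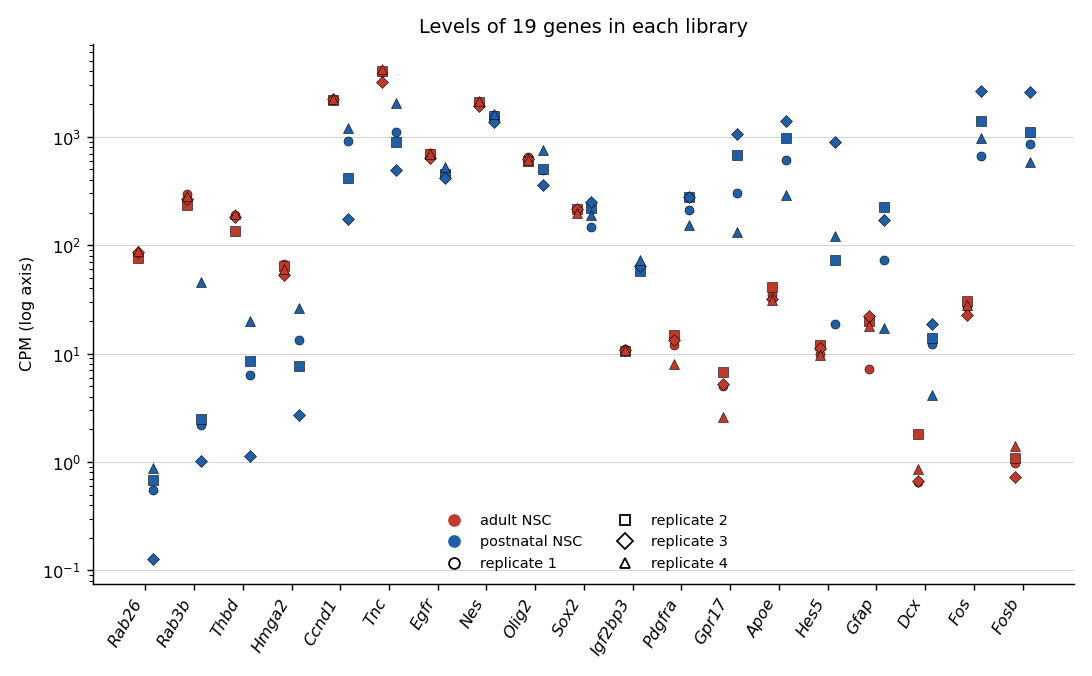
CPM of 19 genes in each of the 8 libraries on a log axis, with adult NSC in red, postnatal NSC in blue and the replicate number given by the marker shape. Adult libraries cluster tightly and postnatal libraries are spread more widely. The groups overlap for Sox2 and Olig2 and are far apart for Fosb, Rab26 and Pdgfra.

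By fold, Rab26, a small GTPase of secretory granules and synaptic vesicles, headed the genes that were higher in adult NSC. Genes named by fold or by difference in CPM had to have no overlap between groups, so their separation is part of the choice. Rab26 (ENSMUSG00000079657.10, chromosome 17 from 24527241 to 24534210 on GRCm38) was at 80.5, 75.8, 86.8 and 89.2 CPM in adult NSC and at 0.55, 0.68, 0.13 and 0.89 CPM in postnatal NSC. The ranges were far apart, and the ratio of the means was 148-fold (7.18 ± 0.35 on the log2 scale, edgeR adjusted p = 3.21e-06). The gene overlaps Traf7 on the same strand, so that its counts are not free of doubt. In OPC it was at 0.19 to 0.34 CPM on a scale fitted to all 12 libraries. Rab3b, a small GTPase of regulated exocytosis, was at 294, 237, 269 and 283 CPM in adult NSC against 2.18, 2.47, 1.02 and 46.1 CPM. Postnatal NSC 4 was the high one of its group, and the log2 rise of 4.39 ± 1.11 became 7.12 without it. Per kilobase of exon the adult mean was 29.1 CPM for Rab26 and 76.8 CPM for Rab3b.

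These GTPase genes did not stand for the release machinery as a whole. Of 36 tested genes of vesicle traffic and exocytosis, 5 were higher (13.9%) and 14 lower (38.9%) in adult NSC, with a median change of −0.21. Over all genes tested the shares were 25.2% and 28.1%. The other rises were those of Cadps (78.9 ± 12.6 against 36.0 ± 6.82 CPM, mean ± SD, n = 4 each), which primes dense-core vesicles, Sytl2 (25.2 ± 6.03 against 14.2 ± 0.80 CPM) and Syt7 (a log2 rise of 0.66). Among the falls, Rph3a, a Rab3 effector gene, was at 0.22, 0.15, 0.22 and 0.37 CPM in adult NSC against 7.08, 4.67, 4.67 and 3.65 CPM in postnatal NSC (−4.38 ± 0.34). Chgb, chromogranin B of secretory granules, was at 0.57 to 0.86 CPM against 6.78, 11.2, 21.6 and 2.86 CPM, with a log2 change of −3.99 ± 0.61, and −3.39 without postnatal NSC 3. The vesicle SNARE gene Vamp1 was 4.73-fold lower.

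Other large rises named genes of varied function. Thbd, the thrombin receptor thrombomodulin, was at 188, 134, 184 and 194 CPM in adult NSC and at 6.28, 8.6, 1.14 and 20.1 CPM in postnatal NSC (4.27 ± 0.66, and 5.0 without postnatal NSC 4). Nrn1, the GPI-anchored neurite growth factor neuritin, was at 30.8 to 43.4 CPM against 0.61 to 2.86 CPM, a 20.9-fold difference of the means. Aldh1a3, an enzyme that makes retinoic acid, was at 46.3 to 83.8 CPM against 0.69 to 11.7 CPM (11.8-fold). Myo7a, an unconventional myosin, was at 15.3 to 18.5 CPM against 0.25 to 1.17 CPM, and the serotonin receptor gene Htr1b at 7.88 to 11.4 CPM against 0.35 to 1.51 CPM. Rgs8, a regulator of G protein signalling, rose 14.6-fold, the tetraspanin-like gene Tm4sf1 17.7-fold, the copine gene Cpne8 15.2-fold and Stac2, a partner of voltage-gated calcium channels, 15-fold. The orphan nuclear receptor gene Esrrb was at 12.3 to 17.1 CPM against 2.33, 0.42, 0.23 and 1.28 CPM (3.81 ± 0.59, and 4.52 without postnatal NSC 1). Zfp984, a zinc finger gene that shares 69.6% of its sequence stretches with other genes, rose by 3.82 ± 1.00 and by 6.76 without postnatal NSC 1, and its counts are uncertain.

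Few genes were close to on or off. At 5 CPM or more in every adult library and under 0.5 CPM in every postnatal one were 3 genes: the channel-like gene Tmc3, the secreted C1q family gene C1qtnf1 and the unnamed transcript Gm27177. The reverse held for 8 genes, Matn4, Slc30a10, Lims2, Itih3, Gm4864, Rpl34-ps2, Gm7125 and Gm6594. Tmc3 was at 14.2, 11.3, 5.84 and 11.5 CPM in adult NSC and at 0.27, 0.47, 0.13 and 0.17 CPM in postnatal NSC. C1qtnf1 was at 5.33 to 7.26 CPM against 0.24 to 0.30 CPM. Slc30a10, a manganese and zinc exporter gene, was at 0.11, 0.26, 0.22 and 0.12 CPM against 12.6, 20.7, 37.6 and 7.45 CPM (−6.74 ± 0.65).

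By difference in CPM, the rule for named genes gave the creatine kinase gene Ckb, the matrix gene Tnc and 3 mitochondrially encoded genes, with Ccnd1, Hspa8 and Tmsb4x. Ckb was at 7913, 7504, 7044 and 8126 CPM in adult and 4527, 5343, 4243 and 5316 CPM in postnatal NSC (0.66 ± 0.10), and 15.6% of its sequence stretches also occur in other genes. Tnc, which encodes tenascin-C of the stem cell niche, was at 3970, 4080, 3178 and 4261 CPM against 1115, 893, 494 and 2048 CPM, 3.40-fold higher. Hspa8, a chaperone gene with 59.4% shared stretches, and Tmsb4x, the actin-binding thymosin beta 4, rose 1.59-fold and 1.56-fold.

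Genes of the oligodendrocyte lineage were mostly lower in adult NSC. Pdgfra, the receptor for PDGF-AA on oligodendrocyte precursors (chromosome 5 from 75152292 to 75198215), was at 12.0, 14.9, 13.5 and 8.09 CPM in adult NSC and at 210, 281, 275 and 154 CPM in postnatal NSC. The difference of 19-fold (−4.24 ± 0.25, edgeR adjusted p = 9.99e-06) exceeded the spread in both groups by far. Gpr17, a receptor gene of committed precursors, was at 4.96, 6.69, 5.28 and 2.57 CPM against 302, 683, 1061 and 133 CPM (−6.79 ± 0.70). The postnatal values were widely spread, and the groups did not overlap, as the rule for genes named by fold required. Gpr17 and Lims2 overlap on opposite strands, and Lims2 was at 0.22 to 0.33 CPM in adult and 7.62 to 53.7 CPM in postnatal NSC. Matn4, a matrix adapter protein gene of precursors, was at 0.38, 0.31, 0.17 and 0.06 CPM against 48.4, 35.3, 61.1 and 23.2 CPM (−7.46 ± 0.46). Neu4, a sialidase gene, was at 0.06 to 0.31 CPM against 11.4, 7.88, 22.8 and 3.18 CPM (−5.84 ± 0.72, and −5.26 without postnatal NSC 3).

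Of 24 tested genes of the oligodendrocyte precursor list, 18 were lower in adult NSC (75%, against 28.1% of all genes), 2 were higher and 4 were not called, and the median change was −1.44. Without postnatal NSC 4 there were 4 higher. Per library, the median of the list relative to the adult mean was 1.46, 1.39, 1.67 and 1.08 in postnatal NSC 1 to 4 on the log2 scale, and within 0.07 of 0 in each adult library. The members that were higher were Megf11 (61.3 ± 10.7 against 24.2 ± 5.98 CPM), a gene of cell-cell recognition, and Xylt1 (583 ± 11.2 against 329 ± 109 CPM), which starts the sugar chains of proteoglycans. Not called were Olig2, Olig1 (−0.11 ± 0.18), the phosphatase gene Ptprz1 (0.06 ± 0.08) and the sulfatase gene Sulf2 (0.60 ± 0.29). Sox10, which drives the lineage, had a log2 change of −3.47 ± 0.38, and Cspg4, which encodes the NG2 proteoglycan, one of −0.77 ± 0.17. Bcan, the matrix proteoglycan brevican, was at 284, 293, 284 and 313 CPM against 1083, 1219, 1779 and 863 CPM. In a pool of cells, fewer cells of a type and less RNA per cell cannot be told apart.

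Genes of later stages of the lineage were lower too, though at modest levels. Among 13 tested genes of mature oligodendrocytes and myelin, 9 were lower (69.2%, against 28.1% of all genes) and 1 was higher. Cldn11, Opalin and Tspan2 were not called, and the median was −1.64. The summed level of the list was 298 to 348 CPM in adult and 616 to 2091 CPM in postnatal NSC. Mbp, myelin basic protein, was at 0.88 to 2.39 CPM against 19, 17.8, 54.0 and 2.81 CPM, and Myrf, the transcription factor of myelination, at 2.11 to 3.62 CPM against 34.6, 48.8, 115 and 7.99 CPM. Enpp6, an enzyme of newly formed oligodendrocytes, was at 0.11 to 0.51 CPM against 7.37, 8.67, 46.3 and 0.74 CPM. For these genes postnatal NSC 3 was the highest library and postnatal NSC 4 the lowest of its group. The log2 changes of Mbp, Myrf and Enpp6 were −4.0, −4.08 and −5.44 with all libraries, and −3.18, −3.34 and −3.96 without postnatal NSC 3. Fa2h, which makes the hydroxylated lipids of myelin, had counts in 2 of 4 adult libraries (0.11 and 0.12 CPM) and was at 3.03, 6.77, 17.1 and 0.99 CPM in postnatal NSC (−6.87 ± 1.19, −5.93 without postnatal NSC 3 and −7.47 without adult NSC 4). The member that was higher in adult NSC was Mobp, a myelin basic protein-like gene, at 3.89 to 6.19 CPM against 0.46 to 1.91 CPM. Mag was at 0.33 CPM or less in adult NSC and reached 5.84 CPM in 1 postnatal library, and Mog, Mal and Ermn stayed under 1 CPM in every library, all below the filter.

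Immediate early genes, which cells transcribe within minutes of a stimulus and many of which encode transcription factors, were the list with the largest median fall. Their promoters are shown because 21 of 25 members moved together. RefSeq (GRCm38.p6) gave windows from 250 bases before to 50 bases after a transcript start for 20 of the 25 genes. These windows were searched for the CArG box, to which serum response factor binds, and for the cAMP response element TGACGTCA, each on both strands. Capitals below mark a match, and the window of Fosb, the gene with the largest fall, had none:
Fosb, chr7:19309996-19310295, minus strand: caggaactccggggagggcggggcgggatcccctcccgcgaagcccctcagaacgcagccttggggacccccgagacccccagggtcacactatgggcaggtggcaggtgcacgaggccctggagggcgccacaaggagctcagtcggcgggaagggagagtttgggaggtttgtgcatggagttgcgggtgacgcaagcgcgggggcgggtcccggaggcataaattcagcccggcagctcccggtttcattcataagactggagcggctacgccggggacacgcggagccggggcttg
Zfp36, chr7:28379179-28379478, minus strand, CArG box: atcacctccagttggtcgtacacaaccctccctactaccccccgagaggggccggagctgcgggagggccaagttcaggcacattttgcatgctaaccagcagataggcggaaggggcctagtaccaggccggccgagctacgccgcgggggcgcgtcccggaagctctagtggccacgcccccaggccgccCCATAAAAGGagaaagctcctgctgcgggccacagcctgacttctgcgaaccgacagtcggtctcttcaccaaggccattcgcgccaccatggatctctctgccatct
Egr2, chr10:67537619-67537918, plus strand, CArG box: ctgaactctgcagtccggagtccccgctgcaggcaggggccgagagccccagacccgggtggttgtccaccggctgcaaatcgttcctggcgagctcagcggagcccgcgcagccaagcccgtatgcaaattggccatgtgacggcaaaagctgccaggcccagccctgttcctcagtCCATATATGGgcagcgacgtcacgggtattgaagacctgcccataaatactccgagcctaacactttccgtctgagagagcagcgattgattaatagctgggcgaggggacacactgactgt
Dusp1, chr17:26508423-26508722, minus strand, cAMP response element: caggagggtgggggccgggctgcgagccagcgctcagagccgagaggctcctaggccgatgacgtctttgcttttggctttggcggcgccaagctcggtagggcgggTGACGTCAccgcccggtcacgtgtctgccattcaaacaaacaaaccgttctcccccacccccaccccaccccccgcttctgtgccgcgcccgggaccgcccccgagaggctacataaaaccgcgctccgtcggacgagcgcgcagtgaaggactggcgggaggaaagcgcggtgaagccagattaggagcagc
Of the 20 genes, 2 (10.0%), Egr2 and Zfp36, had a CArG box in a window, against 1.60% of 10863 tested genes with a window. The cAMP response element was found in 2 of the 20 (10.0%), Btg2 and Dusp1, against 3.59% of the tested genes. A match describes the letters of the window and is not a measured site. Only exact forms were searched, so absence says nothing of variant forms within these 300 bases or of elements outside them. Egr1, Egr3, Arc, Ier2 and Fosl1 had no window.

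Fosb (ENSMUSG00000003545.3, chromosome 7 from 19302696 to 19310051) encodes a subunit of the transcription factor AP-1. It was at 0.97, 1.08, 0.72 and 1.41 CPM in adult NSC and at 851, 1097, 2579 and 590 CPM in postnatal NSC. The ratio was 1223-fold (−10.26 ± 0.62, and −9.67 without postnatal NSC 3). Fos, another AP-1 subunit, was at 26.6, 30.5, 22.8 and 27.9 CPM against 661, 1397, 2616 and 970 CPM (−5.71 ± 0.44). Egr1, a zinc finger transcription factor gene, was at 273, 292, 249 and 287 CPM against 1888, 1740, 3734 and 1701 CPM (−3.04 ± 0.26). The RNA decay factor gene Zfp36, with its CArG box shown above, was at 6.34 to 8.64 CPM against 32.1, 254, 449 and 255 CPM. Klf2, a zinc finger gene, was at 0.22 to 0.61 CPM against 6.83, 10.4, 37.3 and 2.69 CPM, with a log2 change of −5.41 ± 0.91, and −4.32 without postnatal NSC 3. In Fosb, Fos, Egr1, Zfp36 and Klf2 postnatal NSC 3 was the highest library. In each of these genes the lowest postnatal library was above the highest adult one. The rule required this of those named by fold or by CPM.

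All 21 called members of the 25 fell, each by at least 2-fold (84%, against 13.0% of all genes that fell by as much), and the median was −3.04. The median of the list relative to the adult mean was 2.78, 2.62, 3.83 and 2.42 in postnatal NSC 1 to 4. Their summed level was 1031 to 1158 CPM in the adult and 6322 to 16010 CPM in the postnatal libraries. Nr4a1, a nuclear receptor of this class, was at 19.3 to 23.2 CPM against 288 to 831 CPM, and the AP-1 subunit gene Jun at 183 to 198 CPM against 347 to 992 CPM. Not called were Fosl1 (2.78 to 4.41 against 1.18 to 3.67 CPM), Fosl2, Ier3 (14.9 to 17 against 10.8 to 20.4 CPM) and Klf6 (145 to 153 against 121 to 394 CPM). Ccn1, a matricellular protein gene outside the list that also responds quickly to growth factors, was at 9.56 to 13.7 CPM against 324, 446, 1027 and 355 CPM. OPC came from pups of the same age but differed in culture, with PDGF-AA in place of EGF. In OPC Fosb was at 0.12 to 0.44 CPM, Fos at 2.41 to 12.8 CPM and Egr1 at 8.23 to 140 CPM. These levels are on the scale fitted to all 12 libraries.

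Among the other large falls were genes barely counted in adult NSC. Prss22, a serine protease gene, had 2 counts over the 4 adult libraries and 1480 over the postnatal ones, a ratio of 319 with a 95% interval of 88.1 to 2640. P4ha3, a prolyl hydroxylase of collagen, had 3 and 1178 counts, a ratio of 169 (57.8 to 822). These intervals cover counting error only. P4ha3 varied from 0.57 to 18.2 CPM among postnatal libraries, and its fitted log2 change was −7.24 ± 1.34, −6.11 without postnatal NSC 3 and −8.25 without adult NSC 2. The small matrix proteoglycan gene Bgn (−6.54 ± 0.94), Veph1 (−6.53 ± 0.97), the nuclear long noncoding RNA gene Miat (−5.72 ± 0.78) and the membrane protein gene Tmem132b (−5.60 ± 0.64) were lower as well. Without postnatal NSC 3 these were −5.90, −5.80, −4.96 and −4.90.

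Genes that mark resting stem cells and astrocytes were mostly lower in the adult spheres. Of 13 genes of the activated progenitor list, 6 were higher (46.2%, against 25.2% of all genes) and 4 lower (30.8%, against 28.1%), with a median of 0.42. The summed level was 6226 to 6270 CPM in adult against 2555 to 4504 CPM in postnatal NSC, and Ccnd1 and Ccnd2 held a large part of the adult sum. Without postnatal NSC 3 the median was 0.16. Without adult NSC 3, or with an offset for GC content, 4 members were higher. The 4 lower members were Dll1, Btg2, Hes6 and Insm1. Of 20 genes of the quiescent neural stem cell list 11 were lower (55%), 1 was higher and 8 were not called, with a median of −0.75. Apoe, the main lipid carrier of glia, was at 34.7, 40.9, 31.6 and 31.5 CPM in adult NSC and at 611, 964, 1386 and 291 CPM in postnatal NSC (−4.55 ± 0.44). The neurotensin receptor gene Ntsr2 was at 4.60 to 5.34 CPM against 23.2 to 59.9 CPM, Sparcl1, a matricellular protein gene of astrocytes, at 13.7 to 21.9 CPM against 83.2 to 181 CPM, and the adhesion molecule gene Vcam1 at 19.1 to 23.4 CPM against 75.1 to 229 CPM. None of these ranges overlapped. The member that was higher, the sphingosine receptor gene S1pr1, was at 108 to 134 CPM against 50.3 to 113 CPM. Prom1, the membrane protein of stem cells also called CD133, was 3.45-fold lower and the RNA-binding protein gene Msi1 2.05-fold lower.

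Of 15 tested astrocyte genes 9 were lower (60%, against 28.1% of all genes). Cbs, which makes cystathionine, and the gap junction gene Gja1 were higher. Without adult NSC 1, 3 or 4 or postnatal NSC 2 or 4 there was 1 higher. Gfap, the filament of astrocytes and of adult stem cells, was at 7.23, 20.1, 22.1 and 18.0 CPM in adult NSC and at 72.3, 223, 172 and 17.1 CPM in postnatal NSC. Postnatal NSC 4 lay within the adult range, and the log2 change of −2.85 ± 0.69 passed the test (edgeR adjusted p = 0.0076). The water channel gene Aqp4 was at 18.7 to 23.2 CPM against 47.8, 96.0, 235 and 27.2 CPM, with a log2 change of −2.27 ± 0.58, and −1.45 without postnatal NSC 3. S100b, a calcium-binding protein gene, and Agt, which encodes angiotensinogen, were 12.1-fold and 12.6-fold lower. Ttyh1 and Ttyh3, membrane protein genes of the tweety family named by their difference in level, were 3.75-fold and 1.88-fold lower. These lists share members, since quiescent stem cells and astrocytes express many of the same genes.

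In the Notch pathway, in which a ligand on 1 cell activates a receptor on its neighbour, the ligands moved in opposite directions. Jag1 was at 60.4, 58.9, 48.3 and 64.4 CPM in adult NSC and at 12.3, 8.51, 9.27 and 17.7 CPM in postnatal NSC, 4.86-fold higher. Dll1 was at 53.9 to 61.6 CPM against 160 to 344 CPM, and Dll3, an inhibitory ligand of the same family, at 8.36 to 11.3 CPM against 95.1 to 231 CPM (−4.16 ± 0.29). Per kilobase of exon, Jag1 was at a mean of 9.95 CPM in adult and 2.05 CPM in postnatal NSC, and Dll1 at 14 and 53 CPM. The target gene Hes5, a repressor of neuronal differentiation, was at 9.87, 12.1, 11.2 and 9.62 CPM against 18.8, 73.6, 885 and 121.6 CPM. Postnatal NSC 3 was far above the rest, and the log2 change of Hes5 was −4.68 ± 1.08, and −2.74 without that library. Hey2, another target, was 6.04-fold lower, and the receptor gene Notch3 was at 116 to 142 CPM against 199 to 364 CPM. Hes1, a target of the same kind, was not called (−0.77 ± 0.51). The nuclear effector gene Rbpj, which shares 25.9% of its stretches with other genes, was 1.79-fold higher. In all 11 of 20 pathway genes were lower (55%) and 3 higher, the third being the modifying enzyme gene Lfng, with a median of −0.80.

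Genes of neuroblasts and neurons differed in both directions. Dcx, which encodes the microtubule protein doublecortin of migrating neuroblasts, was at 0.65, 1.80, 0.67 and 0.86 CPM in adult NSC and at 12.3, 13.9, 18.7 and 4.12 CPM in postnatal NSC (−3.61 ± 0.51). The homeobox genes Dlx1 and Dlx2, which specify interneurons, were lower too, Dlx1 at 2.45 to 4.02 against 9.20 to 44.0 CPM and Dlx2 at 3.45 to 6.95 against 11.4 to 32.3 CPM. Tubb3, neuronal tubulin, was 4.14-fold lower. Of 21 tested genes of the neuroblast and neuron list 10 were lower (47.6%, against 28.1% of all genes). Not called were 8, and Sox11, Cd24a and Rbfox3 were higher (14.3%, against 25.2%). Sox11, a transcription factor gene of immature neurons, was at 206 to 220 CPM against 92.6 to 118 CPM, and Cd24a, a surface marker of neuroblasts and ependymal cells, at 306 to 334 CPM against 176 to 239 CPM.

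Transcription factor genes that mark brain regions differed in both directions. The largest falls were those of the Iroquois homeobox genes, whose levels were low in both groups. Irx1 was at 0.05, 0.05, 0.11 and 0 CPM in adult NSC and at 2.51, 1.65, 1.35 and 1.80 CPM in postnatal NSC. Irx3 had 3 counts in the adult and 372 in the postnatal libraries, a ratio of 53.5 (95% interval 18.1 to 260), and Irx2 had 3 and 168 counts, a ratio of 24.1 (8.12 to 118). The fitted log2 change of Irx3 was −5.57 ± 0.70, and −6.61 without adult NSC 1. That of Irx5 was −3.44 ± 0.58, and −2.84 without postnatal NSC 4. Higher in adult NSC were Six3 (71.2 to 86.6 against 25.1 to 40.4 CPM), a gene of the rostral forebrain and ventral progenitors, Gsx1 (10.5 to 16.2 against 4.02 to 7.31 CPM), of the ganglionic eminences, and Emx2 (47.0 to 54.8 against 22.5 to 33.4 CPM), of the dorsal telencephalon. Of 26 tested genes of this list 12 were lower (46.2%, against 28.1% of all genes) and 5 higher (19.2%, against 25.2%). The median was −0.50. Of the whole list, 14 genes, among them Nkx2-1, Lhx6, Emx1 and Tbr1, did not pass the filter.

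Genes that time development did not move as 1 group. Of 18 tested genes, 5 were higher (27.8%) and 4 lower (22.2%), against 25.2% and 28.1% of all genes. The median was −0.02, and 3 were higher without adult NSC 2. Igf2bp3, an RNA-binding protein gene of fetal tissues, was at 11.1, 10.5, 10.7 and 10.7 CPM in adult NSC and at 64.8, 57.6, 64.0 and 73.5 CPM in postnatal NSC. Both groups were tight, and the fall was 6.04-fold (−2.59 ± 0.09, edgeR adjusted p = 7.59e-07). Hmga2, a chromatin protein gene that is known to decline with age in neural stem cells, was higher in the adult spheres, at 66.8, 64.3, 52.9 and 60 CPM against 13.4, 7.75, 2.72 and 26.2 CPM (2.29 ± 0.53, and 2.92 without postnatal NSC 4). Cdkn2a, the cell cycle inhibitor gene that Hmga2 is known to keep low, was higher as well, at 36.6 to 40.1 CPM against 8.20 to 30.8 CPM (1.04 ± 0.31). Its call was lost without adult NSC 2 or without postnatal NSC 2 (edgeR adjusted p of 2.82e-05 to 0.0548 over all edgeR settings). Among nuclear factor I genes Nfib was 1.55-fold higher and Nfix 1.69-fold lower. Zbtb20, a hippocampal and glial factor, was higher by 0.98 ± 0.22, and the nuclear receptor genes Nr2f1 and Nr2f2 changed by −0.87 ± 0.17 and −1.11 ± 0.23. The Nr2f1 call was lost with an offset for GC content (edgeR adjusted p of 0.000523 to 0.0843 over all edgeR settings). Lin28a, Lin28b, Igf2bp1 and Trim71, genes of the earliest stages, were at most 0.76 CPM in any library.

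Imprinted genes, which are expressed from the maternal or the paternal copy alone, were 9 lower (39.1%) and 6 higher (26.1%) among 23 tested. Over all genes the shares were 28.1% and 25.2%. On chromosome 12, the neighbouring maternal noncoding RNA genes Meg3 (0.11 to 0.25 against 2.29 to 9.57 CPM) and Rian (0.12 to 0.44 against 1.06 to 5.76 CPM) had log2 changes of −5.25 ± 0.54 and −3.53 ± 0.57. For Rian it was −4.12 with an offset for GC content. The paternal gene Peg10, of retrotransposon origin, was at 244, 275, 273 and 279 CPM against 101, 49.8, 50.2 and 95.9 CPM, and Igf2r, the receptor that clears IGF2, at 105 to 122 CPM against 60.5 to 82.2 CPM. Cdkn1c, a cell cycle inhibitor that is high in resting stem cells, was at 3.25 to 5.01 CPM against 13.3 to 36.1 CPM. The log2 change of H19 was −1.95 ± 0.52, and −1.30 without postnatal NSC 2.

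**Figure D3:**
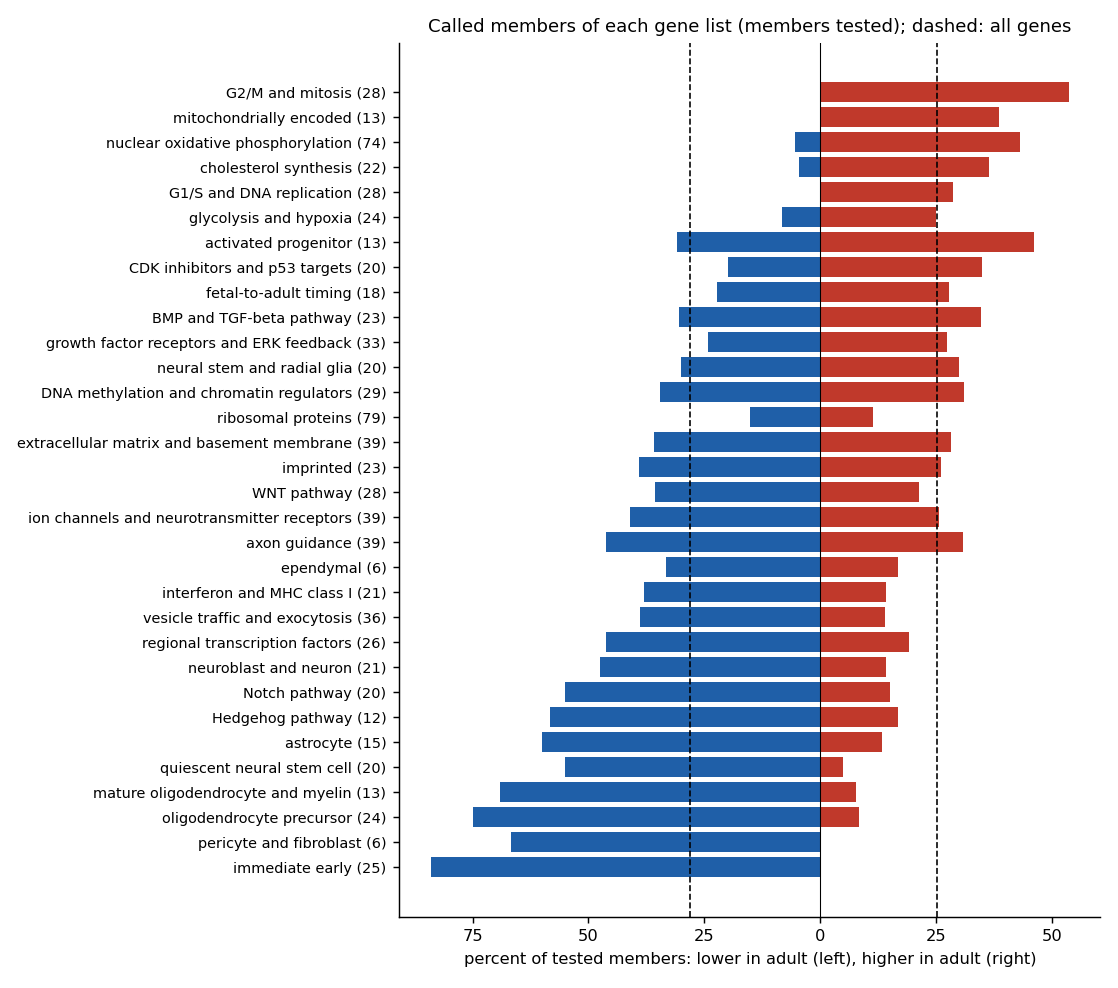
Percent of the tested members of each gene list that were called lower (blue, to the left) or higher (red, to the right) in adult NSC, with the number tested in parentheses. The dashed lines give the shares over all genes tested, 28.1% lower and 25.2% higher. Immediate early and oligodendrocyte lists extend far beyond the line on the left, and no G1/S or G2/M gene was lower.

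On the G1/S and G2/M lists of cell cycle genes, the members called with all libraries were higher in adult NSC. Ccnd1, the cyclin that carries growth factor signals into the cycle, was at 2195, 2192, 2249 and 2242 CPM in adult NSC and at 922, 413, 172 and 1215 CPM in postnatal NSC. The adult libraries were nearly equal while the postnatal ones were widely spread, and the rise of Ccnd1 was 1.71 ± 0.49. Ccnd2 followed the same order of libraries, at 1336 to 1377 CPM against 609, 419, 187 and 835 CPM. Per kilobase of exon the adult means of Ccnd1 and Ccnd2 were 471 and 144 CPM. Mki67, a protein gene of dividing cells, was at 541 to 617 CPM against 401, 379, 290 and 435 CPM (0.66 ± 0.12). Of 28 G2/M and mitosis genes 15 were higher (53.6%, against 25.2% of all genes) and none lower, with a median of 0.39. Examples were the spindle motor genes Kif11 (217 ± 14.7 against 109 ± 30.3 CPM) and Cenpe (138 ± 6.54 against 84.1 ± 10.7 CPM) and the cytokinesis gene Anln (90.1 ± 4.2 against 47.5 ± 14.1 CPM). Without adult NSC 3 there were 8 higher genes of this list, with an offset for GC content 9, and without postnatal NSC 3 there were 17, with 2 lower. Of 28 G1/S and DNA replication genes 8 were higher (28.6%, close to the share of all genes), none was lower and 20 were not called. Of the same genes 2 or 3 were higher when any 1 adult library or postnatal NSC 2 was left out. Without postnatal NSC 3 there were 10 higher and 1 lower. Ccne2, the cyclin of entry into S phase, was at 34.4 to 44.6 CPM against 13.6, 7.71, 3.53 and 18.6 CPM.

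The median level of the G1/S list relative to the adult mean was −0.10, −0.53, −1.43 and −0.05 in postnatal NSC 1 to 4. Postnatal NSC 3 thus had the lowest level of replication genes, and it also had the highest levels of the oligodendrocyte, quiescent and immediate early lists. Postnatal NSC 4 was at the other end of each of these lists, while the order of postnatal NSC 1 and 2 differed between lists. The part of these values in each other was not tested.

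Of 20 genes of the CDK inhibitor and p53 target list 7 were higher (35.0%) and 4 lower (20.0%), with 4 higher without postnatal NSC 2. Over all genes 25.2% were higher and 28.1% lower. Cdkn1a, the p21 inhibitor, was at 379, 351, 333 and 389 CPM in adult NSC and at 193, 141, 72.5 and 270 CPM in postnatal NSC (1.10 ± 0.32). Its call was lost without postnatal NSC 2 (edgeR adjusted p of 0.000148 to 0.0531 over all edgeR settings). Ccng1 and Zmat3, targets of p53, were 2.04-fold and 2.04-fold higher, and the Ccng1 call was lost with an offset for GC content (edgeR adjusted p of 8.14e-05 to 0.0674 over all edgeR settings). Lower were Cdkn1c, the membrane protein gene Perp, the cell death gene Bbc3 and the stress gene Gadd45a. Perp was at 0.11 to 0.67 CPM against 2.00 to 3.70 CPM.

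Growth factor genes and their receptors split by member. The EGF family ligand gene Hbegf was at 134, 156, 115 and 144 CPM in adult NSC and at 67.8, 31.4, 26.1 and 59.3 CPM in postnatal NSC, 2.97-fold higher. Tgfa, another ligand of the same receptor, was at 10.3 to 15.2 CPM against 51.8 to 122 CPM, 5.96-fold lower. Per kilobase of exon, Hbegf was at a mean of 28.4 CPM in adult and 9.55 CPM in postnatal NSC and Tgfa at 2.08 and 12.4 CPM. Fgf1, a ligand of all FGF receptors, was 2.55-fold higher. The receptor genes Erbb3 and Kit were 10.2-fold and 5.14-fold lower, and the ERK phosphatase gene Dusp5 5.97-fold lower. Of 33 tested genes 9 were higher (27.3%) and 8 lower (24.2%), close to the shares of all genes.

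In the BMP and TGF-beta pathway the secreted BMP inhibitors moved apart. Chrdl1 was at 50.8 to 59.0 CPM in adult NSC and 9.95 to 23.3 CPM in postnatal NSC, while Nog, which encodes noggin, was at 0.43 to 0.57 CPM against 1.70 to 7.90 CPM. The receptor gene Tgfbr2 (2.52-fold), the ligand gene Tgfb2 (2.14-fold) and Ltbp1 (1.93-fold), which anchors the latent ligand in the matrix, were higher. The targets Id1 (10.4 ± 0.98 against 53.3 ± 55.8 CPM) and Id4 (8.19 ± 1.09 against 37.1 ± 27.5 CPM), inhibitors of differentiation, had log2 changes of −2.35 ± 0.59 and −2.18 ± 0.46. Postnatal NSC 3 had the highest value of both, and without it the changes were −1.29 and −1.55. Of 23 tested genes 8 were higher (34.8%) and 7 lower (30.4%), against 25.2% and 28.1% of all genes. Without adult NSC 1, 2 or 3 or postnatal NSC 2 there were 5 higher. The ligand gene Bmp4 did not pass the filter and was not tested. It was at most 0.06 CPM in adult NSC and reached 20.9 CPM in postnatal NSC. Bmp2, Grem1, Smad6 and Inhba, also below the filter, were at most 1.91 CPM in any library.

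Of 12 tested Hedgehog pathway genes 7 were lower (58.3%) and 2 higher (16.7%), against 28.1% and 25.2% of all genes. Without adult NSC 3 or postnatal NSC 2 there were 4 lower. Cdon, a co-receptor, was at 320, 312, 278 and 343 CPM in adult NSC against 100, 87.4, 63.2 and 88.9 CPM, while Boc, a co-receptor of the same family, was at 7.52 to 9.77 CPM against 13.3 to 40.4 CPM. The repressor gene Gli3 was 1.75-fold higher, and Gli1, a readout of the pathway, was at 0.06 to 0.22 CPM against 0.36 to 0.94 CPM. In the WNT pathway 6 of 28 genes were higher (21.4%) and 10 lower (35.7%), among them the receptor genes Fzd3 (314 ± 22.8 against 181 ± 15.7 CPM) and Fzd9 (6.04 ± 0.86 against 34.4 ± 8.89 CPM). The repressor gene Tcf7l1 was 3.33-fold lower, and Rnf43, which removes the receptors from the surface, 7.18-fold lower.

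The extracellular matrix list had 11 genes higher (28.2%) and 14 lower (35.9%) among 39, against 25.2% and 28.1% of all genes. Besides Tnc, the fibrillar collagen gene Col5a1 was at 88.8 to 117 CPM against 23.4 to 43.0 CPM, and Col18a1, of vascular and epithelial basement membranes, at 154 to 217 CPM against 24.4 to 88.3 CPM. Col9a1, a cartilage-type collagen gene, was at 0.11 to 0.46 CPM against 2.05 to 10.4 CPM, and the thrombospondin gene Thbs1 at 3.56 to 5.45 CPM against 65.0, 13.1, 44.1 and 7.05 CPM. Its relative Thbs2 went the other way, at 86.0, 99.6, 42.5 and 83.1 CPM in adult NSC against 23.2, 26.4, 45.7 and 17.1 CPM, with adult NSC 3 below postnatal NSC 3. Among axon guidance genes 12 of 39 were higher (30.8%) and 18 lower (46.2%). Sema3e rose from 0.23 to 0.54 CPM in postnatal to 2.51 to 3.88 CPM in adult NSC, and Sema3a was 2.76-fold higher. The netrin receptor genes Unc5b and Unc5c differed in direction, at 78.8 ± 6.84 against 21.6 ± 9.05 CPM and 1.55 ± 0.40 against 8.46 ± 3.29 CPM. Nrp2, a receptor of class 3 semaphorins, was at 2.05 to 6.13 CPM against 17.2 to 41.7 CPM.

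Of 39 tested ion channel and neurotransmitter receptor genes 10 were higher (25.6%) and 16 lower (41.0%), against 25.2% and 28.1% of all genes. The falls included Grik3, a kainate receptor subunit (12.4 to 17.5 against 52.4 to 99.5 CPM), Asic1, an acid-sensing channel (10.4 to 12.9 against 33.1 to 88.2 CPM), and Grin2c, an NMDA receptor subunit (3.31 to 5.45 against 7.26 to 26.3 CPM). Grin2a, another NMDA receptor subunit, was higher (3.00 to 3.86 against 0.10 to 1.58 CPM), as were the leak potassium channel gene Kcnk1 (21.4, 21.5, 21.7 and 22.2 against 6.83, 4.93, 3.38 and 6.41 CPM), the ATP receptor gene P2rx7 (112 to 147 against 41.0 to 95.4 CPM) and the GABA receptor gene Gabrg1 (66.2 to 78.3 against 30.4 to 43.1 CPM).

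Of 74 nuclear genes of oxidative phosphorylation 32 were higher (43.2%, against 25.2% of all genes) and 4 lower, all by less than 2-fold, with a median of 0.16. Leaving out adult NSC 3 gave 21 higher. Ndufc2 of complex I was at 159 to 174 CPM against 81.5 to 110 CPM and Uqcr10 of complex III at 105 to 112 CPM against 49.1 to 72.4 CPM. Atp5d, Ndufv1 and Ndufb11 were among the 4 lower genes, and the count of lower genes was 0 without adult NSC 1 or 2, 1 without postnatal NSC 2, 2 without adult NSC 3, 8 without postnatal NSC 3 and 7 without postnatal NSC 4. Mitochondrially encoded genes had 5 of 13 higher (38.5%) and none lower. Their direction rested on the treatment of GC content: with an offset for it 3 were higher and 5 lower, and the calls for mt-Atp6 and mt-Nd1 were lost (edgeR adjusted p of 0.000336 to 0.152 and 0.00398 to 0.385 over all edgeR settings). The mt-Nd1 call was also lost without adult NSC 1, adult NSC 2 or postnatal NSC 1. Without postnatal NSC 3, 8 of the mitochondrially encoded genes were higher. mt-Nd3 was at 498 to 662 CPM against 58.0 to 239 CPM, and 98.1% of its sequence stretches also occur in other genes, so that its counts are uncertain. The same holds for mt-Atp6, with 99.5% of its stretches shared.

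The cholesterol list had 8 of 22 genes higher (36.4%, against 25.2% of all genes) and 1, Tm7sf2, lower (4.55%, against 28.1%). When any 1 adult library or postnatal NSC 2 was left out, 5 were higher. Idi1, the isomerase that makes the branched building block of sterols, was at 404, 417, 453 and 397 CPM in adult NSC and at 175, 139, 142 and 178 CPM in postnatal NSC, and 22.2% of its stretches also occur elsewhere. Sc5d, a late enzyme, was 1.86-fold higher. Of 24 glycolysis and hypoxia genes 6 were higher and 2 lower, 12 and 1 with the GC offset, and 5 were lower without adult NSC 3. The phosphofructokinase genes Pfkp (69.1 to 82.8 against 13.5 to 24.8 CPM) and Pfkm (62.2 to 74.6 against 82.3 to 114 CPM) went in opposite directions. Per kilobase of exon the adult means were 5.71 CPM for Pfkp and 20.4 CPM for Pfkm. Ndrg1, a hypoxia-responsive gene, was 4.2-fold higher, and its call was lost without adult NSC 3 (edgeR adjusted p of 6.22e-05 to 0.0519 over all edgeR settings).

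Cytosolic ribosomal protein genes stayed near 0, with a median of 0.01. Of 79, 9 were higher (11.4%, against 25.2% of all genes) and 12 lower (15.2%, against 28.1%). These counts moved with the setting, to 20 higher and 6 lower with the GC offset, 20 lower without postnatal NSC 3 and 17 higher without postnatal NSC 1, and without adult NSC 2 to 5 and 5. Rpl29 was the one with a rise of over 2-fold (422 to 448 against 112 to 156 CPM), with 49.1% of its stretches shared. Of 29 chromatin and DNA methylation genes 9 were higher and 10 lower. In the Polycomb groups Suz12 (1.68-fold) and Bmi1 (1.69-fold) were higher, and Cbx8 (2.56-fold), Cbx7 (2.49-fold) and Ezh1 (2.11-fold) lower. Bmi1 shares 31.1% of its stretches with other genes. In the interferon and MHC class I list 8 of 21 genes were lower (38.1%) and 3 higher (14.3%). H2-D1, an MHC class I heavy chain with 27.5% shared stretches, was at 15.9 to 17.5 CPM against 63.0, 64.9, 79.2 and 29.6 CPM, while Ifitm3, an antiviral membrane protein with 20.5% shared stretches, was at 49.2 to 60.3 CPM against 8.20 to 20.5 CPM.

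Some gene families were counted after their values had been seen, and their counts are descriptions. They are to be read against the 25.2% of all genes tested that were higher and the 28.1% that were lower. Of 21 nucleoporin genes, which build the nuclear pore, 13 were higher and none lower, and the count was 13 with the GC offset too. Of 10 Utp genes, whose products process the small ribosomal subunit RNA, 8 were higher, an example being Utp20 (122 to 127 CPM in adult NSC against 75.6, 50.6, 28.5 and 77.0 CPM). In the test against 1.5-fold no nucleoporin or Utp gene was called. Mitochondrial ribosome genes had 26 of 48 (large subunit) and 14 of 29 (small subunit) higher, with 3 and 1 lower. Without adult NSC 3, 18 of the large subunit genes were higher. Ubiquitin-conjugating enzyme genes had 19 of 33 higher and 2 lower, with 14 higher without adult NSC 1 and 15 with the GC offset. Of 12 integrin alpha genes 6 were higher and none lower, among them the laminin receptor subunit gene Itga6 (439 to 494 against 172 to 290 CPM). Without adult NSC 1, 2 or 4 or postnatal NSC 2, 4 integrin alpha genes were higher. Of 14 Sox genes 10 were lower and Sox11 and Sox7 higher, with 8 lower and 4 higher with the GC offset. Of 49 replication-dependent histone genes 30 were lower and Hist1h4i higher, and of 48 genes of the protocadherin alpha, beta and gamma clusters 29 were lower and Pcdhga5 higher. The histone transcripts mostly lack a poly(A) tail, share long stretches with each other and had a median GC content of 58.8%, and with the GC offset 22 were lower and 2 higher. With counts thinned to the smallest library 18 of 28 were lower. Hist1h1c, a linker histone, was at 24.8 to 34.1 CPM against 105 to 160 CPM. Protocadherins, which give neurons a cell surface identity, share sequence within a cluster, and their counts are uncertain for that reason.

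Markers of other cell types were near 0 or low. Of 12 microglial genes 10 did not pass the filter, Cx3cr1 had no count and Aif1 at most 0.05 CPM, while Cd68, which other cells also express, was at 1.94 to 2.83 CPM in adult and 3.80 to 7.95 CPM in postnatal NSC. Endothelial genes such as Pecam1, Cdh5 and Cldn5 were at most 0.40 CPM, and Erg was called, higher at 0.36 to 0.72 CPM against 0.08 to 0.22 CPM, while without any 1 postnatal library 2 of the 4 tested genes of this list passed the filter and none was higher. Without postnatal NSC 4 there was 1 lower. The hemoglobin gene Hbb-bs was at most 0.05 CPM, and Ttr, of choroid plexus, at most 0.47 CPM. Otx2, the one choroid plexus marker that passed, was at 1.39 to 3.50 CPM against 6.03 to 11.2 CPM. In the pericyte and fibroblast list 4 of 6 tested genes were lower: Tagln (6.95 to 14.2 against 15.9 to 46.0 CPM), Acta2, Col1a1 and Pdgfrb, with a summed level of the list of 24.0 to 58.1 CPM in adult and 60.6 to 112 CPM in postnatal NSC, and Dcn and Lum at most 0.15 CPM. Without adult NSC 1 there were 2 lower. Foxj1, the ciliary transcription factor of ependymal cells, was at 17.5 to 18.9 CPM against 33.9 to 46.7 CPM, while 6 of 12 ependymal genes did not pass the filter. The part of such cells in the other values was not tested.

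The 4 postnatal libraries were not equally far from the adult ones. On the first principal component, computed from the 500 genes that varied most and holding 82.3% of their variance, postnatal NSC 4 was nearest to the adult libraries, followed by 1, 2 and 3. Among the 1896 genes that fell by at least 2-fold with no overlap, postnatal NSC 4 had the value nearest to adult NSC in 1089 (57.4%) and postnatal NSC 3 the farthest in 1319 (69.6%). Among the 1017 that rose in this way the shares were 49.0% (498 genes) and 57.5% (585 genes). The median over the fallen genes was 1.47, 1.74, 2.08 and 1.27 above the adult mean in postnatal NSC 1 to 4 on the log2 scale. Over the risen genes it was −1.336, −1.517, −1.865 and −1.187, so that by these medians the order was the same for rises and falls. By the share of fallen genes nearest to adult NSC it was not, with 7.17% for postnatal NSC 2 and 10.5% for postnatal NSC 3. These genes were chosen for their group difference from the same values, so they are no separate check on the component. Xist was at 0.52, 828, 1359 and 540 CPM in postnatal NSC 1 to 4, and its part in the order was not tested.

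**Figure D4:**
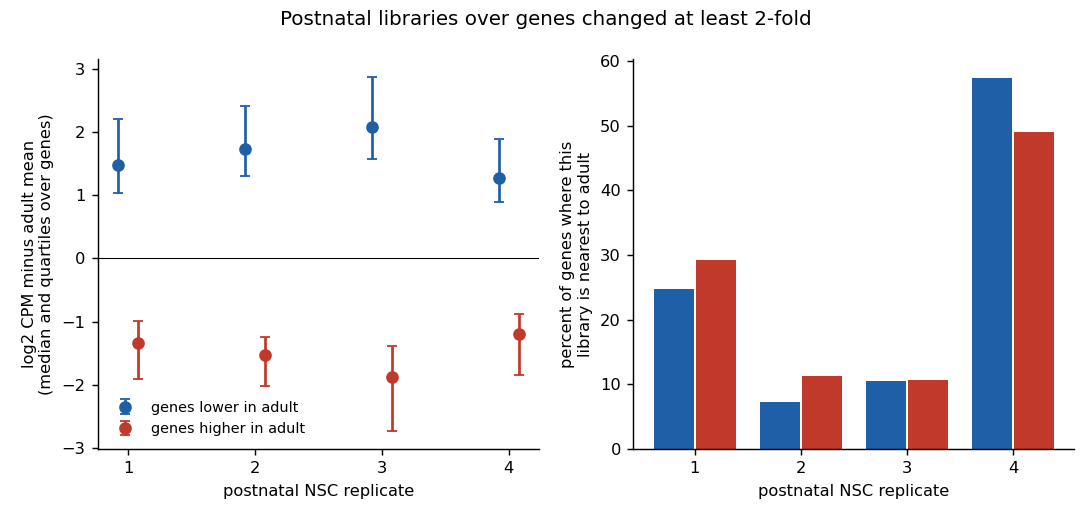
Left, the log2 CPM of each postnatal library minus the adult mean, as median and quartiles over the 1896 genes lower (blue) and 1017 genes higher (red) in adult NSC by at least 2-fold with no overlap. Right, the percent of those genes in which each postnatal library is the one nearest to adult NSC, with postnatal NSC 4 nearest in 57.4% and 49.0%.

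Calls followed the base composition of the transcripts. With genes in 10 equal bins, in the bin of lowest GC content (28.3% to 41.2%) 51.0% were higher in adult NSC and 8.45% lower, and in the bin of the highest (57.8% to 75.5%) 6.29% were higher and 55.2% lower. The shares changed steadily over the bins between, and the median change went from 0.45 to −0.49 on the log2 scale. Each adult library was above the mean of all 8 in the lowest bin and below it in the highest, and each postnatal library the reverse. The shares also differed between chromosomes, and the 2 autosomes with the highest and lowest share of higher genes were chosen after their values were seen. On chromosome 3, with a median GC of 47%, 31% of tested genes were higher and 20.4% lower, and on chromosome 7, with 51.9%, 18.7% and 33.8%. Long noncoding RNA genes had 10.7% higher and 29.6% lower, against 27.1% and 29.3% of protein-coding genes. With an offset for GC content in each library, a fit added after the gradient had been seen, 3840 genes were higher and 4059 lower, 909 and 1890 of them by at least 2-fold. In that fit 153 of the 159 genes followed through all settings had the same call and direction as in the fit without it. Of the 159, 157 were called in the fit without it and many were named for the size of their change. Their share therefore does not stand for all called genes. Whether the gradient came from the cells or from the libraries cannot be told apart, since every adult library is on the same side.

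**Figure D5:**
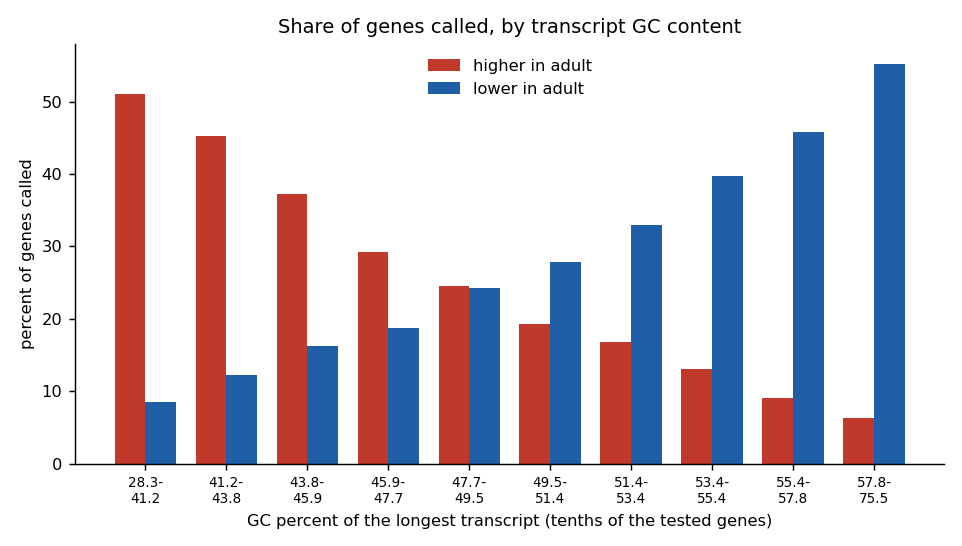
Percent of tested genes called higher (red) or lower (blue) in adult NSC, in 10 equal bins of the GC content of the longest transcript. The share of higher genes falls from 51.0% to 6.29% and that of lower genes rises from 8.45% to 55.2% from the lowest to the highest bin.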

How the data were processed

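Libraries were made from mRNA with a kit that keeps the strand, per the labels, after extraction with either of 2 RNA kits that the labels do not tie to samples. The values are raw gene counts as deposited by the authors, with no normalization. Per the submitters' processing notes, FastQC, STAR, featureCounts 1.22.2 and GRCm38 were used. How strand and reads with several matches were handled, and with which annotation release, is not given in the sources used here, so genes that overlap or share sequence are uncertain. Of 55401 identifiers 55141 were found in GENCODE release M21, and 260 were not, which made up 0.0095% to 0.013% of a library. Depth was 16756231 to 54801726 counts per library, and the postnatal NSC totals exceeded the number of reads that the labels state.

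Groups came from the labels. Genes were kept by filterByExpr (minimum count 10, minimum total 15), which left 16227, scaled by TMM and tested in 1 edgeR quasi-likelihood fit of the 8 libraries with a two-sided test, Benjamini-Hochberg adjustment and a threshold of 0.05 (R 4.3.3, edgeR 4.0.16, limma 3.58.1, DESeq2 1.42.0, Python 3.11.15). OPC were left out of the fit. Their levels come from scaling all 12 libraries together. CPM and their ratios were computed from the counts. CPM per kilobase divides by the exonic length in M21. The SD is over the 4 libraries of a group. Shared stretches are runs of 31 bases of a gene's longest transcript that also occur in transcripts of other genes. GC content is that of the longest transcript. Ratios with 3 counts or fewer in a group have exact 95% (Clopper-Pearson) intervals. Such intervals hold counting error alone: without molecular identifiers, reads need not be separate molecules.

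Named genes are called genes of 5 CPM or more in the higher group with no overlap: the 15 largest rises and falls by fold and the 8 by CPM, up to 4 called members in each direction of a list, and Pdgfra, Olig2, Sox2, Nes, Egfr, Gfap, Dcx and Mki67. List members were taken whatever their level or overlap, which is wider than the rule as first written. Other genes in the text were chosen after their values were seen. The members, lists and tests were chosen with earlier results of these data known, and lists are described by counts and medians without a test. The fit was also run on simulated data with known changes in few genes and the same spread in both groups. It recovered 30.9%, 72.5% and 98.4% of changes of 1.5-fold, 2-fold and 4-fold, and 5 of 138 calls were false. In the real data the groups differ in spread and many more genes were called, so these shares need not hold there. Within-group pairs of libraries differed by more than sampling noise (the lowest chi-square was 3.74 per degree of freedom), so none was treated as a duplicate. Some genes are not reported here.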

Additional observations from a re-analysis of the deposited data

Results flagged for a closer look

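In 13 of 318 sets of 4 values (each of the 159 genes in either group; 4.09%), 1 library lay far from the other 3 by Dixon's criterion on the gap relative to the range. Chance alone gives such a gap in about 1 set in 20.

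In postnatal NSC 3, Egr1 was at 3730 CPM (1700 to 1890 CPM in the other postnatal libraries), Id1 at 137 CPM (21.7 to 29.2) and Ndrg1 at 0.228 CPM (3.92 to 4.79). In adult NSC 3, Tm4sf1 was at 14.6 CPM (20.2 to 21.2 in the other adult libraries), Klf2 at 0.612 CPM (0.216 to 0.257), Cdkn2a at 36.6 CPM (39.8 to 40.1), Cdkn1c at 5.01 CPM (3.25 to 3.45) and the cytokinesis gene Anln at 96.4 CPM (87.2 to 88.5). In adult NSC 2, Thbd was at 134 CPM (184 to 194) and Hey2 at 2.27 CPM (1.1 to 1.2). In adult NSC 4, Sox2 was at 196 CPM (214 to 216) and Bmi1 at 110 CPM (126 to 129), and in adult NSC 1 Peg10 was at 244 CPM (273 to 279).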

How the results depend on the processing

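Of 159 genes followed through 21 alternative settings, 125 kept their call and direction in every setting that gave a value. Many of the 159 were named for the size of their change, so that this share does not stand for all called genes. Sox2, which was not called, changed sign with library totals alone (−0.018) and without postnatal NSC 1, and ranged from −0.076 to 0.175 when any 1 library was left out. Tested against a change of 1.5-fold in place of 0 (glmTreat), 1022 genes were higher and 1796 lower. In that test 31 of the 159 genes lost their call, among them Cdkn1a, Cdkn2a, Ccng1, Ndrg1, Nr2f1, Fabp7, mt-Atp6 and mt-Nd1. The ranges of adjusted p given above over edgeR settings do not include it. When any 1 library was left out, 3212 to 4358 genes were higher and 3909 to 4850 lower, of which 889 to 1216 and 1739 to 2331 by at least 2-fold. With library totals alone 3388 were higher and 5221 lower, with counts thinned to the smallest library 3503 and 4278, with Ddx3y as a covariate 3889 and 4124, and by DESeq2's Wald test 4641 and 5104. Of 70 counts of called list members, 59 to 70 stayed within 1.5 times in each setting but glmTreat, where 33 did. Depth is lower in adult NSC, which limits what can be called among genes of few counts there.

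Replicate numbers are shared between the groups, but same-numbered libraries did not deviate together (correlations of −0.139, −0.013, −0.124 and −0.017), and the labels do not say that a number marks a litter. With the replicate block 3712 genes were higher and 3857 lower, of which 1122 and 1946 by at least 2-fold.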
